A study of Ovis aries with 16 samples.

Results

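Small nucleolar RNAs (snoRNAs) whose level was higher in thigh muscle of adult sheep exposed to bisphenol A (BPA) before birth are described here across all 16 libraries of the study. The members were chosen on the muscle values themselves: a snoRNA locus entered when its deposited value averaged at least 5 over the 8 muscle libraries and when its mean in the 4 BPA muscles was at least 2 times its mean in the 4 control muscles. This rule selected 39 of the 694 snoRNA loci in the table, or 39 of the 162 loci (24.1%) that reached the level of 5. The BPA difference in muscle is therefore given as a description and without a test, while the liver libraries took no part in the choice and were tested.

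The animals were female Suffolk sheep, fasted for 48 hours and sampled when close to 21 months old; their cycles had been set with 2 doses of prostaglandin F2α, 11 days apart, the later one 24 hours before sampling. The mothers of 4 animals (902, 908, 924 and 928, the controls) had been injected daily under the skin with corn oil from day 30 to day 90 of gestation, and the mothers of the other 4 (910, 918, 977 and 984, the BPA animals) with BPA, a plastics monomer, at 0.5 mg per kg per day in corn oil. Liver (tip of the left lobe) and vastus lateralis muscle of each animal gave 1 small RNA library each, so there are 4 libraries per group and both tissues of a sheep carry its number. In every list of values below, controls stand in the order 902, 908, 924, 928 and BPA animals in the order 910, 918, 977, 984. A value is the deposited normalized count, a read count divided by a size factor that was set within the snoRNA table and within each tissue, so levels are compared within a tissue only.

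snoRNAs are short nuclear RNAs that guide enzymes to sites in ribosomal and spliceosomal RNA. Those of the box C/D class direct ribose methylation and are usually the shorter ones, and those of the box H/ACA class direct the conversion of uridine to pseudouridine. In mammals most lie in introns of other genes, often genes for ribosomal proteins or nucleolar factors, and are trimmed out of the spliced intron. The processed tables name every snoRNA by a locus number only, so the members' classes and targets were not assigned here. No lists of snoRNA families could be matched for the same reason, with 0 of the 694 loci carrying a family name.

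The snoRNA reads behind the values, recovered from the deposited values, numbered 2825 to 3872 per control muscle, 9886 to 15915 per BPA muscle, 8000 to 10629 per control liver and 6054 to 40463 per BPA liver. One read was worth 0.357 to 1.71 units of the deposited value. The tissue labels were checked on miRNAs. MIR133, the 1 of 8 listed muscle miRNAs present in the table, was at 244661 to 373488 in muscle and 115 to 717 in liver, and the sum of MIR194 and MIR148A, 2 of 4 listed liver miRNAs, was at 40787 to 66109 in liver and 1311 to 2028 in muscle. Markers of other cells overlapped between control and BPA muscle: MIR150 (1 of 4 leukocyte markers) at 1368 to 2028 and 1485 to 2760, MIR221 (1 of 3 endothelial markers) at 296 to 390 and 281 to 467, and the sum of MIR143 and MIR199A (2 of 4 fibroblast and smooth-muscle markers) at 15907 to 28471 and 7999 to 21246. None of these markers was at 0, and neither of the 2 erythroid markers was in the table. The part of these cells in the results was not tested. In whole tissue, a change in the number of cells of a type and a change in RNA per cell cannot be told apart.

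The libraries carry codes in the labels, and the members' share of snoRNA reads is given here in the order of these codes. The rule chose loci that are low in control muscle and high in BPA muscle. The split among the muscles below was therefore largely fixed in advance, and only the livers are free of the rule. The members made up 8.93% to 13.6% of all snoRNA reads in the 7 libraries with codes 65 to 76, which are 1 control liver, 2 BPA livers and the 4 control muscles. They made up 39.6% to 50.5% in the 6 libraries with codes 77 to 97, which are the 4 BPA muscles and the other 2 BPA livers. In the 3 control livers with the highest codes, above 97, they made up 14.2% to 26.4%. These code ranges are not in the labels and were drawn where the shares change, so nothing is read from their borders. Control muscles hold codes 73 to 76 and BPA muscles codes 77, 78, 79 and 97, so library code and treatment cannot be told apart in muscle. In liver the BPA animals 977 and 984 have codes 71 and 72 and the BPA animals 910 and 918 have codes 95 and 96, and the members differed between these pairs, as described below. The labels do not say what the codes mean, nor whether the 4 animals of a group had separate mothers.

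**Figure D1:**
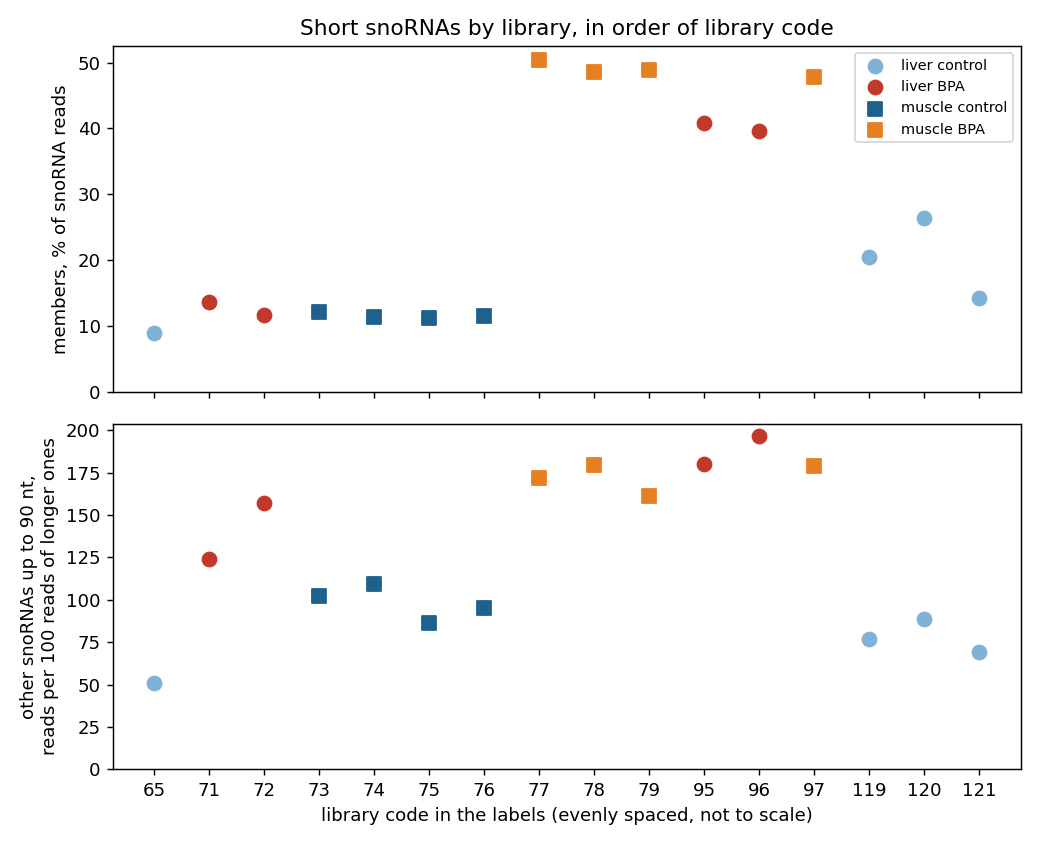
Top: reads of the 39 members as a percentage of all snoRNA reads (vertical axis) in each of the 16 libraries, ordered by library code (horizontal axis). Bottom: reads of other snoRNAs of up to 90 nt per 100 reads of longer ones. Each point is 1 library and there are no error bars. In the top plot all libraries with codes 77 to 97 lie at 39.6% or above and all others at 26.4% or below, a range of codes drawn where the shares change. The muscle values chose the members, so the gap between control and BPA muscles in the top plot follows from the rule.

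In muscle, the members' reads as a share of all snoRNA reads were 12.1, 11.4, 11.2 and 11.4% in the controls and 50.5, 48.5, 48.8 and 47.8% in the BPA animals. Every BPA muscle thus held a share several times that of any control muscle, with 48.9 ± 1.14% against 11.5 ± 0.399% (mean ± SD, n = 4). Read counts of the miRNA table were taken from its smallest common step too, but that step is less surely 1 read than in the snoRNA table. Set against them, member reads per 100000 miRNA reads were 77.1, 78.8, 65.8 and 68.5 in the controls and 791, 630.3, 778 and 1273 in the BPA animals. The snoRNAs longer than 90 nt, none of which is a member, were at 269.9, 286, 273 and 266 and 279, 234, 304 and 490.0 reads per 100000 miRNA reads, so that 3 of the 4 BPA muscles lay near the control range of 266 to 286 and animal 984 lay above it. snoRNAs of up to 90 nt that are not members also stood higher in BPA muscle, at 161 to 179 reads per 100 reads of longer snoRNAs against 86.1 to 110 in the controls. The same measure was at 51.01, 77.1, 88.6 and 69.2 in the control livers and 179.9, 197, 124 and 157 in the BPA livers. All BPA libraries of a tissue thus lay above all its controls on it, also the BPA livers with codes 71 and 72. In liver the longer snoRNAs were themselves lower per miRNA read in every BPA animal. Per 100000 miRNA reads they were at 4883, 1894, 1377 and 3252 in the control livers. In the BPA livers they were at 607, 541, 455 and 317. The measure is thus a ratio of short to longer snoRNAs and does not show that short ones rose in liver. Its part in the results was not tested.

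The ratio of the BPA to the control mean among the 39 members ran from 2.01 to 67.6 with a median of 5.50, and it was at least 3 in 31 members, at least 5 in 23 and at least 10 in 13. Over all 162 loci the median ratio was 0.886. All 4 BPA muscles lay above all 4 control muscles in 38 of the 39 members, and in 43 of the 162 loci (26.5%), while 14 of the 162 (8.64%) had all BPA muscles below. The rule used this contrast, so nothing is read from that count. Under 3 other scalings the members' median ratio was 7.93 (miRNA size factors), 6.62 (1 size factor over the 4 tables) and 3.08 (total snoRNA reads), where the median of all 162 loci was 1.25, 1.04 and 0.492. A scaling moves all loci of a library alike, so it leaves the members' place among them nearly fixed. No member fell below a ratio of 1 under any of these 4 scalings, the lowest being 1.13 with total snoRNA reads.

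**Figure D2:**
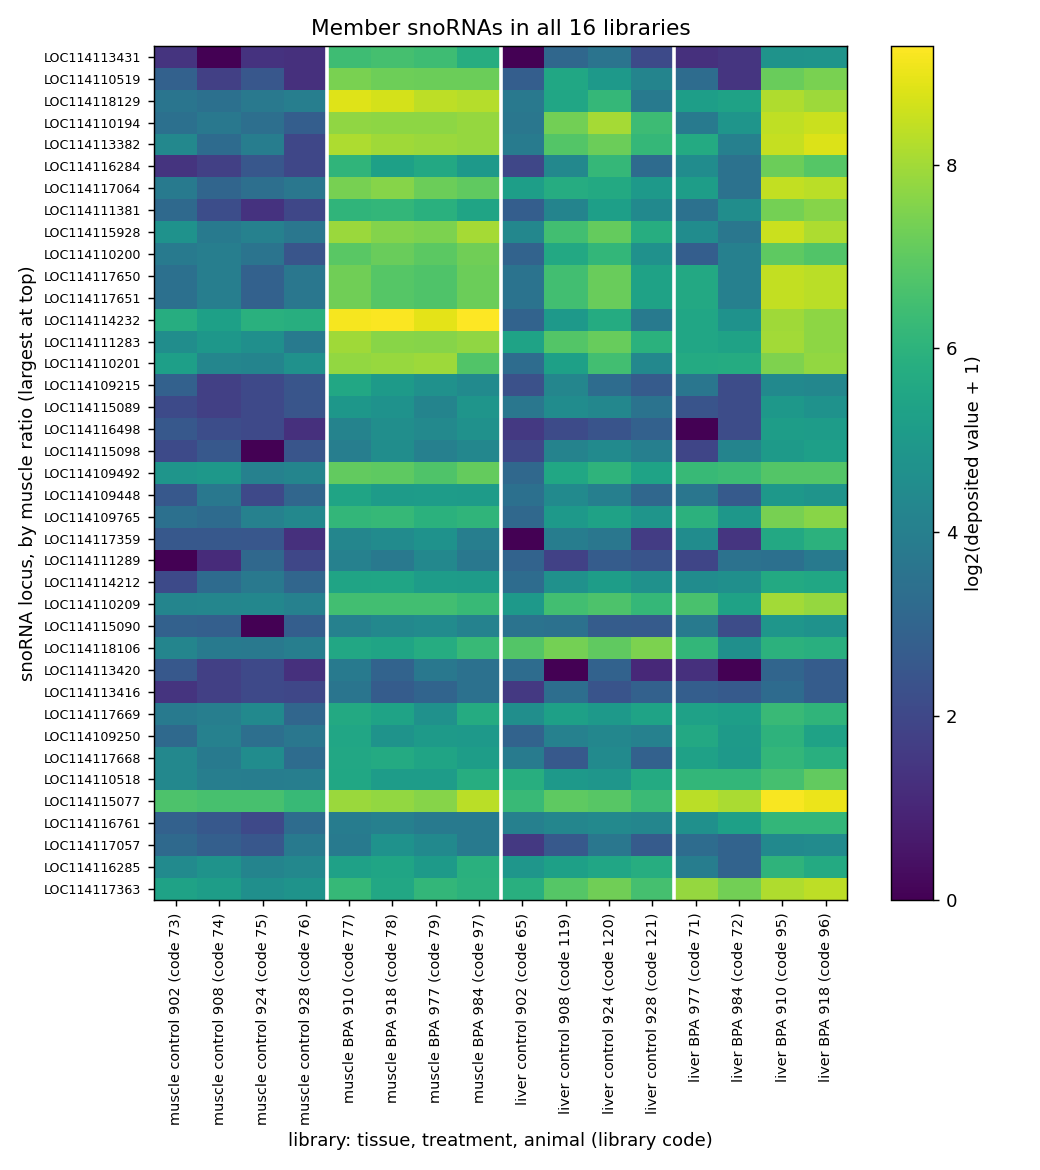
Deposited values of the 39 members (rows, largest muscle ratio at the top) in the 16 libraries (columns, grouped by tissue and treatment and ordered by library code), as log2(value + 1). The BPA muscles are brighter than the control muscles in all rows but that of LOC114117057, where the groups overlap, and among the livers the 2 BPA livers with codes 95 and 96 are the brightest in most rows.

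The members with the largest ratios were at low values in every control muscle. LOC114113431, of 81 nt and within the span of UBAP2, a gene for a ubiquitin-associated protein, was at 1.62, 0, 1.58 and 1.47 in the control muscles and 84.8, 91.99, 83.7 and 54.7 in the BPA muscles. These are 3 reads in all over the controls, with 0 in control 908, which allows a value of up to 3.64 (3 reads), against 97 to 149 reads in each BPA muscle. The ratio of means was 67.6, and the ratio of reads per size factor was 71.1 with an exact 95% interval of 24.2 to 346 that covers counting error only. The interval covers neither the spread between animals nor the choice of this locus by its ratio, so it is no test of the difference. LOC114110519, of 66 nt and within C23H18orf32, was at 6.46, 2.42, 4.73 and 1.47 in the control muscles and 172, 150.0, 145 and 147 in the BPA muscles, a ratio of 40.7. Both loci were thus high in every BPA muscle and at a handful of reads in every control.

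LOC114118129, of 80 nt, lies within SF3B3, which encodes a subunit of the splicing factor SF3b. Its values were 11.3, 9.70, 12.6 and 14.7 in the control muscles and 451, 409, 325 and 305 in the BPA muscles, a ratio of 30.9. LOC114113382, of 70 nt, lies within NCL, the gene of nucleolin, a major nucleolar protein, and was at 19.4, 8.48, 14.2 and 2.94 in the control muscles and 282, 248, 239.6 and 224 in the BPA muscles, a ratio of 22.1. LOC114110194, also of 70 nt, lies within the long non-coding locus LOC114110053 and was at 9.69, 12.1, 9.46 and 5.87 in the control muscles and 212, 207, 207 and 224 in the BPA muscles, a ratio of 22.9. In all 3 the lowest BPA value was far above the highest control value.

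The next 3 loci by ratio were also low in every control muscle. LOC114116284, of 73 nt and within RPS12, the gene of a small-subunit ribosomal protein, was at 1.62, 2.42, 4.73 and 2.94 in the control muscles and 67.3, 37.7, 47.9 and 30.8 in the BPA muscles (ratio 15.7). LOC114117064, of 72 nt and within TRPV2, a cation channel gene, was at 12.9, 7.27, 9.46 and 11.7 in the control muscles and 166, 193, 146 and 129 in the BPA muscles (ratio 15.3). LOC114111381, of 69 nt and within EIF4A2, which encodes an RNA helicase of translation initiation, was at 8.08, 3.64, 1.58 and 2.94 in the control muscles and 67.3, 70.4, 58.8 and 42.5 in the BPA muscles (ratio 14.7). The groups did not overlap in any of the 3.

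The most abundant member in BPA muscle was LOC114114232, of 75 nt and within ATP5F1B, the gene of the beta subunit of mitochondrial ATP synthase. It was at 54.9, 37.6, 58.4 and 55.8 in the control muscles and 566, 596, 479.8 and 625 in the BPA muscles, a ratio of 10.97. LOC114115928, of 71 nt and within RPL4, a large-subunit ribosomal protein gene, was at 25.8, 13.3, 15.8 and 11.7 in the control muscles and 236, 190.2, 174 and 265 in the BPA muscles, a ratio of 12.98. LOC114115077, of 68 nt and within RACK1, the gene of a scaffold protein bound to the small ribosomal subunit, had the highest control level of all members, at 102, 94.5, 94.6 and 74.9 in the control muscles and 235, 218, 191 and 323 in the BPA muscles, and a ratio of 2.64. The group means of LOC114114232 were 51.7 ± 9.50 and 567 ± 62.8, and those of LOC114115077 91.4 ± 11.6 and 242 ± 57.04 (SD, n = 4).

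One pair of members had identical values in all 16 libraries. LOC114117650, of 71 nt and within NOP56, a gene for a core protein of box C/D snoRNA particles, and LOC114117651, which has no entry in the gene table, were both at 9.69, 14.5, 6.31 and 11.7 in the control muscles and 152, 112, 106 and 148 in the BPA muscles (ratio 12.3). The 39 members therefore hold 38 separate profiles.

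At the lower edge of the rule the groups came close. Just inside it, LOC114117363 (80 nt) was at 40.4, 35.1, 23.7 and 26.4 in the control muscles and 73.4, 46.9, 70.3 and 62.1 in the BPA muscles (ratio 2.01), LOC114116285 (70 nt) was at 21, 26.7, 17.4 and 19.1 in the control muscles and 39.3, 42.6, 32.6 and 58.9 in the BPA muscles (ratio 2.06), and LOC114117057 (78 nt) was at 8.08, 6.06, 4.73 and 13.2 in the control muscles and 13.1, 25.9, 20.4 and 12.7 in the BPA muscles (ratio 2.25). LOC114117057 is the 1 member whose groups overlapped, through control 928. Just outside it, LOC114117067 (70 nt), an abundant snoRNA, was at 627, 726, 509.5 and 439 in the control muscles and 1166, 1238, 948 and 1219 in the BPA muscles, a ratio of 1.99. LOC114117050 and LOC114110203 (68 nt each) followed with ratios of 1.90 and 1.79. A further 72 loci had a ratio of at least 2 but a mean below 5, out of 240 loci below 5 with at least 1 read in muscle.

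Among the BPA muscles no single animal carried the difference. The SD of a member over the 4 BPA muscles had a median of 18.8% of its mean (3.62% to 36.3%), and over the 4 control muscles, where read counts were lower, 37.9% (6.63% to 115%). Animal 910 was the highest of the BPA muscles in 15 members, 984 in 11, 918 in 9 and 977 in 4, and the lowest was 984 in 15, 977 in 13, 918 in 7 and 910 in 4. Animal 984, whose muscle library has code 97, was thus at the top or the bottom of the 4 in more members than any other animal, and its member share of 47.8% was close to theirs. In 13 members every control muscle held at most 5 reads.

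The members shared a small size. The gene table held 37 of the 39, all between 63 and 89 nt with a median of 72 nt, while the 114 other loci with a length ranged from 62 to 248 nt with a median of 109.5 nt. By length, members were 7 of 16 loci up to 69 nt, 18 of 26 loci of 70 to 74 nt, 4 of 15 loci of 75 to 79 nt, 8 of 26 loci of 80 to 90 nt, 0 of 12 loci of 91 to 120 nt and 0 of 56 longer ones. The median muscle ratio in these classes was 1.85, 3.63, 1.13, 1.03, 0.938 and 0.669. Not every short locus was a member: 46 loci of up to 90 nt were not members, and their ratios ran from 0.503 to 1.99 with a median of 0.951. The longer loci had ratios of 0.284 to 1.24 with a median of 0.684. The class limits were set after the values were seen, and length was not tested.

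**Figure D3:**
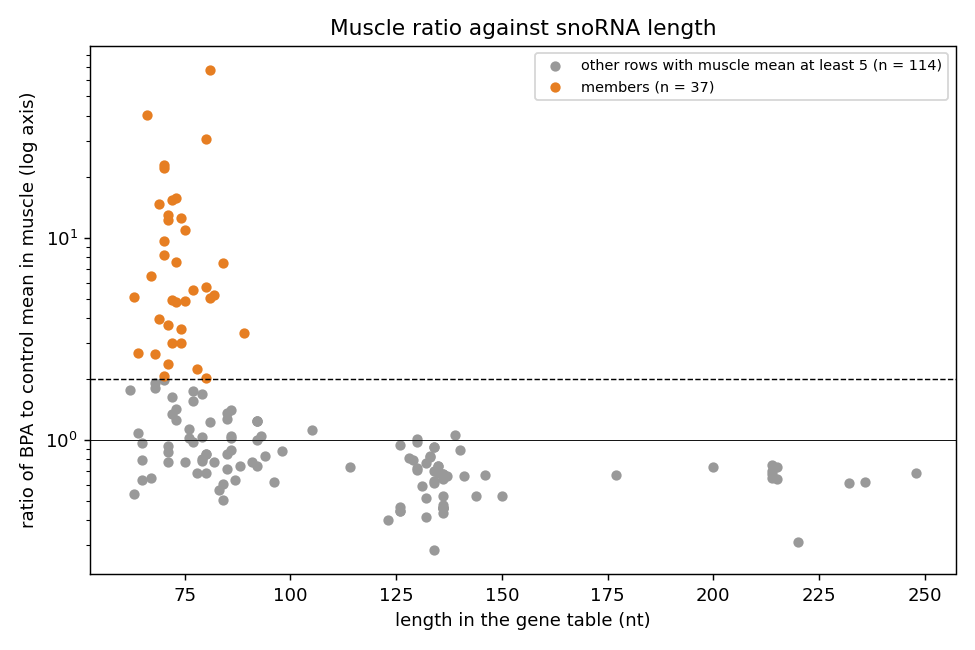
Ratio of the BPA to the control mean in muscle (vertical log axis) against the length of the locus in nucleotides (horizontal axis) for the 151 loci with a length and a muscle mean of at least 5. Orange points are the 37 members with a length, all at 63 to 89 nt, grey points the 114 others, the dashed line the ratio of 2 and the solid line a ratio of 1.

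The members were scattered over 17 chromosomes of the sheep assembly in the gene table. Of the 37 with an entry, 28 lay within the span of a protein-coding gene, 6 within a long non-coding locus only, 1 within a transcribed pseudogene, and 2 within no longer gene. Among the 114 other loci, 81 lay within a protein-coding gene, 12 within a long non-coding locus only and 20 within none. Genes for ribosomal proteins or RACK1 spanned 8 of the 37 members and 22 of the 114 others. The table gives no exons or strands, so intronic placement was not checked. The 5 genes that span more than 1 member are the long non-coding locus LOC114110053 with 3, and C23H18orf32, NOP56, GNL3 (nucleostemin, a nucleolar GTP-binding protein) and PPAN (a factor of large-subunit assembly) with 2 each. One member, LOC114109250, lay within SNRPN, a gene for a spliceosomal protein that is imprinted in mammals.

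Loci spanned by the same gene often differed in ratio. The members with a spanning gene fell within 29 genes, and 13 of these also spanned a locus that reached the level of 5 without being a member. Within NOP56, the members LOC114117650 (71 nt) and LOC114117669 (72 nt) had ratios of 12.3 and 3.01, against 0.780 for LOC114117648 (71 nt), 1.02 for LOC114117664 (86 nt) and 0.460 for LOC114117656 (136 nt).

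Within RPL7A, a large-subunit ribosomal protein gene, LOC114114212 (75 nt) had a ratio of 4.84, whereas LOC114114215, also of 75 nt, was at 0.776 and LOC114114211 (73 nt) at 1.42. Within NCL the member of 70 nt was at 22.1 and LOC114113388 (80 nt) at 0.686. Within EIF4A2 the member of 69 nt was at 14.7, and the longer LOC114111253 (132 nt) and LOC114111371 (177 nt) were at 0.764 and 0.668. The long non-coding locus LOC114110053 spanned 6 loci, 3 of them members of 70 to 74 nt with ratios of 22.9, 12.6 and 8.23, while the others of 68, 72 and 126 nt were at 1.79, 1.63 and 0.467. The members of a gene stand above its other loci here because the rule chose them by this ratio, and the size of the gap is given as a description.

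**Figure D4:**
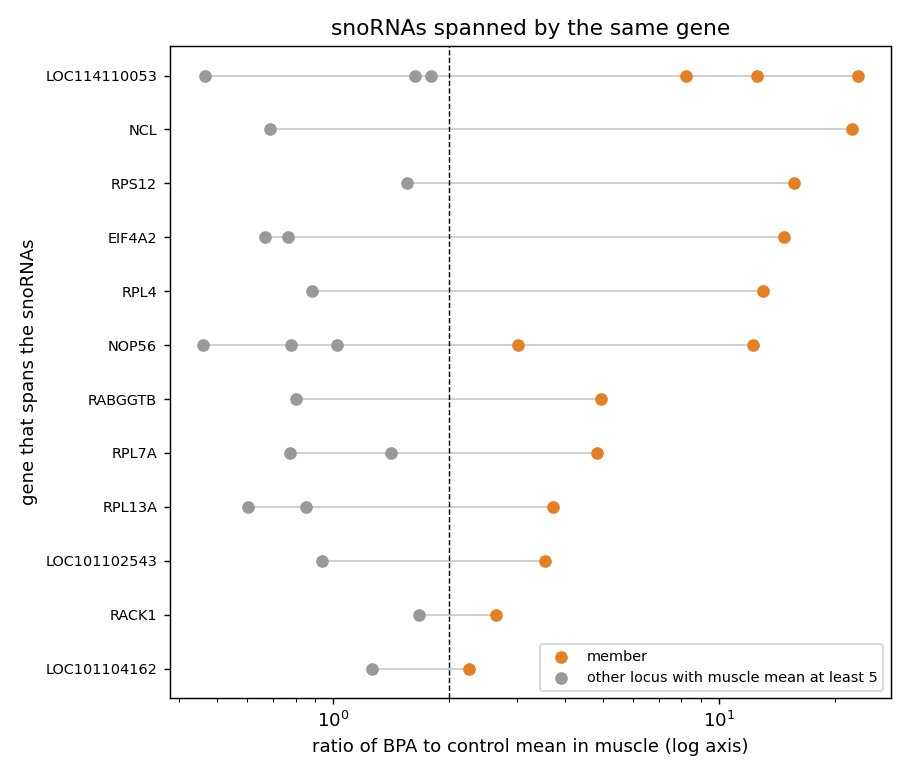
Muscle ratio of BPA to control mean (horizontal log axis) for snoRNA loci spanned by the same gene (rows), for 12 of the 13 genes that span both members (orange) and other loci with a muscle mean of at least 5 (grey). Each point is 1 locus and the dashed line is the ratio of 2; of the pairs of a member and another locus, that of RACK1 (2.64 and 1.68) is the closest.

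Of the spanning loci, 5 were themselves in the long non-coding RNA table, which the authors scaled separately. The transcribed pseudogene LOC101116687, which spans LOC114109765 (63 nt), was at 21.4, 19.7, 19.3 and 35.9 in the control muscles and 136, 169, 168 and 181 in the BPA muscles, so its groups did not overlap. LOC101104162 and LOC105611302 also had all BPA muscles above all controls, at 49.4, 45.9, 40.1 and 46 against 59.5, 80.1, 85.8 and 101 and at 21.4, 26.2, 19.3 and 27.3 against 41.7, 44.99, 41.1 and 88.8. LOC101102543 and LOC105606646 overlapped between the groups in muscle. The share of loci with separate groups over the whole long non-coding table was not counted, so nothing is read from these separations. Reads of a nested snoRNA can be counted in these loci too, so they are no separate measure of the members.

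In liver, 38 of the 39 members reached the mean of 5 that was required for the test over 212 snoRNA loci (limma on log2(value + 1), Benjamini-Hochberg adjustment over the table). Of the 38, 9 rose in BPA liver (23.7%, against 50 of 212 or 23.6% of all loci), 1 fell (2.63%, against 56 of 212 or 26.4%) and 28 did not pass. In the limma fit the share that rose was thus that of the whole table, where 106 of 212 loci (50%) changed in either direction. It was below that of the 63 other loci of up to 90 nt, of which 21 (33.3%) rose and 13 (20.6%) fell. Of the 100 longer loci, 17 (17%) rose and 36 (36%) fell. With edgeR on recovered reads 16 of the 38 members rose, against 61 of 212 loci (28.8%), and 1 fell, against 53 of 212 (25%), so that the members' share that rose was above the table's there. Leaving out BPA animal 910 left 4 of 38 members called in either direction, against 87 of 214 loci (40.7%), and leaving out BPA animal 918 also left 4, against 85 of 212 (40.1%). Leaving out control 928 left 5, against 85 of 208 loci (40.9%). Leaving out control 902 left 6, against 98 of 210 loci (46.7%), and leaving out control 908 also left 6, against 93 of 209 (44.5%). The members thus lost calls under these omissions where the table kept most of its number. The remaining omissions did not lower the members' count. It was 12 without control 924, 10 without BPA animal 977 and 14 without BPA animal 984. Over all loci 48, 44 and 48 were then higher and 52, 53 and 50 lower, of 215, 211 and 211. The members' median log2 fold change was 0.88, against 0.01 over all 212 loci, 0.50 over 63 other loci of up to 90 nt and -0.54 over 100 longer ones. With the miRNA size factors the direction turned, with 0 of 39 members higher, 5 lower and a median of -1.19. In that fit 0 of 247 loci were higher, 142 (57.5%) were lower and the median of all loci was at -2.11, so the members' share that fell was below the table's. All 4 BPA livers lay above all control livers in 7 of the 38 members (18.4%) and in 45 of the 212 loci (21.2%), and below them in 1 of the 38 and in 46 of the 212 loci (21.7%). Among the 63 other loci of up to 90 nt they lay above in 19 (30.2%) and below in 11 (17.5%).

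The BPA livers split by animal. Animals 910 and 918 (codes 95 and 96) both lay above every control liver in 35 of the 38 members (92.1%), against 85 of 212 loci (40.1%). Animals 977 and 984 (codes 71 and 72) both did so in 7 of the 38 (18.4%), against 57 of 212 (26.9%). The first pair lay above the second in 34 of the 38 members (89.5%) and in 63 of the 212 loci (29.7%). Among the 63 other loci of up to 90 nt these counts were 29 (46.0%), 26 (41.3%) and 18 (28.6%), in the same order. The median over members of the log2 difference from the control mean was 2.08 and 1.91 in animals 910 and 918, and 0.12 and -0.27 in 977 and 984. Among the controls, animal 902 (code 65) was the lowest in 31 of the 39 members and in 99 of the 212 loci. The member share of snoRNA reads was 8.93, 20.5, 26.4 and 14.2% in the control livers and 40.9, 39.6, 13.6 and 11.7% in the BPA livers. Per 100000 miRNA reads, the control livers held 756, 903, 973 and 965 member reads. The BPA livers held 1196, 1072, 164 and 110.1. Animals 977 and 984 thus lay below every control on that measure and 910 and 918 above every control. The miRNA reads themselves numbered 94393, 240815, 223344 and 122056 in the control livers. In the BPA livers they numbered 1383538, 578150, 688052 and 641334, each above every control. The measure and the miRNA size factors thus carry this difference in miRNA reads as well as the members' own level.

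With animals 977 and 984 alone against the 4 controls, a comparison added after the data were seen, 3 of 36 members tested rose (42 of 210 loci, or 20%, did), 3 fell (45 of 210, or 21.4%) and the median log2 fold change was -0.030, which is 0.19 above the median of all loci. With animals 910 and 918 alone, 27 of 38 members rose (60 of 209 loci, or 28.7%), 1 fell (53 of 209, or 25.4%) and the median was 1.96, which is 2.12 above the median of all loci. Among libraries with codes up to 79, which are control 902 and BPA animals 977 and 984, 7 of 35 members tested rose (42 of 218 loci, or 19.3%), 1 fell (26 of 218, or 11.9%) and the median was 0.99. This fit has 1 control, so its spread comes from the 2 BPA livers alone and the control is assumed to vary like them. That control is the lowest of the 4 in most members, so nothing is read from the fit. No BPA liver has a code in the range of the other 3 controls. The part of the library codes in the muscle difference was not tested.

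The members with the largest muscle ratios were the ones that split the livers most. Of the 13 with muscle ratios from 11.0 to 67.6, 1 was called in liver, and their median liver log2 fold change was 2.75 with animals 910 and 918 and -0.95 with animals 977 and 984. Of the 13 with ratios of 4.80 to 9.61, 2 were called, with medians of 1.54 and -0.0046. Of the 12 tested among the 13 with ratios of 2.01 to 3.94, 7 were called, with medians of 1.68 and 0.61. The median with animals 910 and 918 thus did not follow the order of the muscle ratio. Over all loci 106 of 212 (50%) were called, so the count of 7 is near the table's share and the counts of 1 and 2 are below it. LOC114110519 was at 5.85, 45.8, 30.5 and 17.2 in the control livers and 142, 172, 8.66 and 1.71 in the BPA livers (log2 fold change 0.46 ± 1.21 SE, limma adjusted p = 0.764). LOC114110194 was at 11.7, 158, 265 and 81.8 in the control livers and 335, 372, 12.98 and 27.4 in the BPA livers (0.04 ± 1.19 SE, limma adjusted p = 0.978). LOC114118129 was at 12.7, 44.2, 71.9 and 12.9 in the control livers and 292, 241, 36.1 and 39.4 in the BPA livers (1.85 ± 0.81 SE, limma adjusted p = 0.0835). In each of the 3, animals 910 and 918 were the highest of the 8 livers.

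The other members with high muscle ratios gave the same picture. LOC114113382 was at 13.6, 111, 145 and 72.1 in the control livers and 358, 445, 50.5 and 15.4 in the BPA livers. LOC114117064 was at 36.05, 53.3, 49.02 and 31.2 in the control livers and 345, 321, 34.6 and 10.3 in the BPA livers, and LOC114115928 at 18.5, 89.2, 136 and 54.9 in the control livers and 370.2, 281, 21.6 and 11.98 in the BPA livers. Their limma adjusted p in liver were 0.575, 0.434 and 0.821, those of LOC114113431, LOC114116284, LOC114111381 and LOC114117650 were 0.475, 0.208, 0.172 and 0.459, and in none of these 7 did the liver groups separate. LOC114114232 passed narrowly, at 6.82, 30.8, 51.2 and 12.9 in the control livers and 249.9, 210.2, 44.7 and 25.7 in the BPA livers (2.12 ± 0.81 SE, limma adjusted p = 0.0476), with BPA animals 977 and 984 below control 924, and it did not pass with these 2 animals alone (limma adjusted p = 0.403, and up to 0.981 over all settings).

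A smaller number of members was higher in all 4 BPA livers. LOC114115077, the RACK1 locus, was at 76.96, 126, 115 and 79.6 in the control livers and 589, 522, 320.3 and 274 in the BPA livers (log2 fold change 2.05 ± 0.38 SE, limma adjusted p = 0.00155) and rose also with either pair of BPA animals alone (limma adjusted p = 0.0155 with 977 and 984, 0.00194 with 910 and 918). LOC114117668, which has no entry in the gene table, was at 13.6, 5.0, 20.7 and 6.46 in the control livers and 70.7, 57.4, 38.95 and 30.8 in the BPA livers (2.14 ± 0.47 SE, limma adjusted p = 0.00357), and in muscle at 19.4, 13.3, 22.1 and 8.81 in the control muscles and 46.3, 50.01, 41.5 and 35.05 in the BPA muscles (ratio 2.72). LOC114109250, within SNRPN, was at 6.82, 15.8, 18.5 and 16.1 in the control livers and 62.8, 39.8, 47.6 and 32.5 in the BPA livers (1.65 ± 0.40 SE, limma adjusted p = 0.00593) and in muscle at 8.08, 15.8, 9.46 and 11.7 in the control muscles and 44.6, 26.5, 32.6 and 31.3 in the BPA muscles (ratio 3.0). Each of these 3 passed with either pair of BPA livers, and each had a modest ratio in muscle. With the miRNA size factors their liver log2 fold changes were -0.18, 0.020 and -0.49, and the limma adjusted p of 0.775, 0.981 and 0.452 there were the highest over all settings. In that fit the median of all loci was -2.11, with 0 of 247 loci higher and 142 lower.

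LOC114116761 (71 nt), within RPL21, a large-subunit ribosomal protein gene, was at 15.6, 18.3, 19.6 and 18.3 in the control livers and 70.3, 69.4, 24.5 and 37.7 in the BPA livers (1.32 ± 0.41 SE, limma adjusted p = 0.0206), with 6.46, 4.85, 3.15 and 8.81 in the control muscles and 13.99, 15.4, 12.8 and 12.7 in the BPA muscles (ratio 2.36). LOC114117363 was at 56.5, 114, 156 and 92.6 in the control livers and 293, 327, 226 and 159 in the BPA livers (1.29 ± 0.42 SE, limma adjusted p = 0.0253). All 4 BPA livers stood above the controls in both, and neither passed with animals 977 and 984 alone (limma adjusted p = 0.186 and 0.151, and up to 0.355 in both over all settings). The remaining called members, LOC114109765, LOC114110518 and LOC114109492, had limma adjusted p of 0.0394, 0.0394 and 0.0475. With animals 977 and 984 alone none of the 3 passed (limma adjusted p = 0.303, 0.207 and 0.187), and LOC114109492 did not pass with 910 and 918 alone either (limma adjusted p = 0.0691). Scaled by miRNA size factors, their log2 fold changes were -0.28, -1.08 and -0.64, where the median of all loci was -2.11. Over all settings their limma adjusted p reached 0.769, 0.632 and 0.380. LOC114116285 and LOC114117057, both near the lower edge of the muscle rule, did not pass (limma adjusted p = 0.364 and 0.0950).

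One member went the other way in liver. LOC114118106 (71 nt), within RPL13A, the gene of a large-subunit ribosomal protein, was at 111, 162, 129 and 173 in the control livers and 61.4, 57.4, 69.2 and 23.97 in the BPA livers (log2 fold change -1.50 ± 0.43 SE, limma adjusted p = 0.0129), with all BPA livers below all controls. In muscle it was at 17.8, 13.3, 12.6 and 14.7 in the control muscles and 46.3, 41.98, 53.03 and 75.4 in the BPA muscles (ratio 3.71), with all BPA muscles above all controls. It fell in liver with either pair of BPA animals (-1.77 with 977 and 984, -1.24 with 910 and 918) and with the miRNA size factors (-3.70), and the highest limma adjusted p over all settings was 0.0441. The miRNA size factors moved the median of all loci to -2.11 and called 142 of 247 loci lower, so part of the -3.70 is shared by the table. The 2 other loci within RPL13A, LOC114118174 and LOC114118175 (85 and 84 nt), had muscle ratios of 0.850 and 0.602. In liver the mean of LOC114118174 was 31.4 in the controls and 79.4 in the BPA animals, and that of LOC114118175 was 13.5 and 9.61.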

How the data were processed

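Small RNA was sequenced from liver and muscle of 8 sheep, 4 per treatment and tissue. The authors deposited normalized counts, here treated as a signal, in tables of snoRNAs, miRNAs, snRNAs and lncRNAs. Per the submitters' processing notes cutadapt 3.2, STAR 2.6.0c and featureCounts 1.6.1 were used. Neither their roles nor a build, annotation or normalization software were given in the sources used here. Each library's snoRNA values were whole multiples of 1 step (100% of values, tolerance 0.001), so whole reads were recovered. The miRNA values were whole multiples too, but over 105 miRNAs only, so reads per miRNA read rest on a less certain step. Within a tissue, all libraries of a table had 1 common median ratio to their mean profile, so scaling was set per table and tissue. Lengths and spanning genes come from the RefSeq gene table of ARS-UI_Ramb_v3.0, which may not be the authors' build, so no coordinates are given.

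BPA was compared with control in liver on log2(value + 1) with limma 3.58.1 in R 4.3.3 (eBayes with trend), for loci with a liver mean of at least 5, two-sided, Benjamini-Hochberg over the snoRNA table, threshold 0.05. The pseudocount understates changes of low loci. The script was tested on simulated data. edgeR 4.0.16 and DESeq2 1.42.0 on recovered reads, other scalings, filters and pseudocounts, and leaving out libraries were alternatives. The members and lists were chosen with earlier results of these data known. Values are given for the 8 largest muscle ratios, the 5 highest BPA muscle means, the up to 5 members called in each direction in liver with the smallest p, members with opposite directions, identical rows and the edge of the rule. Other loci, among them those that share a gene with a member, were chosen after their values were seen. The loci of 1 spanning gene are not reported here.

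The animal's number pairs the tissues, and deviations of same-numbered libraries from their group means correlated by -0.12 to 0.35 over 158 snoRNAs. Control muscles 902 and 924 agreed within sampling noise over snoRNAs (chi-square per degree of freedom 1.12) but not over the 4 tables (23.3), and were kept as separate samples. Intervals and count limits cover counting error only.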

Additional observations from a re-analysis of the deposited data

Results flagged for a closer look

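LOC114118106 differed in direction between the tissues, with all 4 BPA animals above all controls in muscle and below all controls in liver (log2 fold change -1.50). The difference between tissues was not tested, because the muscle contrast chose the members. In 80 groups of 4 libraries, the lowest or highest library stood apart from the other 3 in 2, where chance gives about 1 in 20. These were LOC114113431 at 0 in control muscle 908, a matter of 1 read, and LOC114114232 at 37.6 in control muscle 908.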

How the results depend on the processing

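The number of members was 37 to 43 without single muscle libraries and stayed within 1.5 times of 39 under every other threshold and scaling tried, from 29 with total snoRNA reads, all of them members, to 51 with the miRNA size factors, which held all 39. Called members in liver (10, of which 9 higher) numbered 5 with the miRNA size factors (all lower; of 247 loci 0 higher and 142 lower), 3 with 1 size factor over the 4 tables (of 215 loci 21 and 86), 4 with total snoRNA reads (of 215 loci 23 and 61), 17 with edgeR on recovered reads (16 higher; 61 and 53 of 212 loci higher and lower), 15 with DESeq2 (57 and 60 of 212), 6 with animals 977 and 984 alone and 28 with 910 and 918 alone. Without single livers they numbered 4 to 14, with 4 without BPA 910 or BPA 918, 5 without control 928 and 6 without control 902 or 908, and their median log2 fold change was 0.45 to 1.42. That median was -1.19 with the miRNA size factors and -0.030 with animals 977 and 984 alone. With all 16 libraries and the animal as replicate block, 14 members were called (58 and 57 of 212 loci) and the median stayed 0.88; within a tissue the groups hold different animals, so no closer pairing exists. Of 434 liver fold changes of 19 named members under the alternatives, 333 kept direction and side of the threshold, 29 passed newly, 28 no longer passed and 44 turned sign. The cause of a change was not tested. Those that turned sign follow by setting. With the miRNA size factors, which move the median of all loci to -2.11, these were LOC114113431 at -0.37, LOC114110519 at -1.45, LOC114118129 at -0.32, LOC114110194 at -2.11, LOC114113382 at -1.43, LOC114116284 at -0.47, LOC114117064 at -1.20, LOC114111381 at -0.52, LOC114114232 at -0.023, LOC114115077 at -0.18, LOC114115928 at -1.84, LOC114109250 at -0.49, LOC114116761 at -0.83, LOC114117363 at -0.94, LOC114117650 at -1.19 and LOC114117057 at -0.75. With 1 size factor over the 4 tables they were LOC114110519 at -0.22, LOC114110194 at -0.71, LOC114113382 at -0.017 and LOC114115928 at -0.45, and with total snoRNA reads LOC114110519 at -0.081, LOC114110194 at -0.50 and LOC114115928 at -0.25. With edgeR, LOC114116285 at 0.015. With codes up to 79 they were LOC114110519 at -0.42, LOC114117064 at -0.89 and LOC114115928 at -0.19. With animals 977 and 984 alone they were LOC114110519 at -2.02, LOC114110194 at -2.04, LOC114113382 at -1.15, LOC114117064 at -1.08, LOC114111381 at -0.16, LOC114115928 at -1.82 and LOC114117650 at -0.82, and with 910 and 918 alone LOC114116285 at 0.48. Without single livers the values ran for LOC114110519 from -0.41 to 1.59, for LOC114110194 from -0.85 to 0.90, for LOC114115928 from -0.48 to 1.14. Depth limits the loci with few reads: 13 members had at most 5 reads in every control muscle.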
